A study of Mus musculus with 4 samples.

Results

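Skeletal muscle transcripts were followed through 4 RNA libraries that were labelled as surface cartilage of the mouse knee. The 40 genes chosen for this were taken by symbol from the count table, where all of them were found among 24421 rows. They encode 14 proteins typical of fast fibres, 9 typical of slow fibres, 11 sarcomere and membrane proteins common to both, and 6 enzymes and proteins of energy supply. They were chosen by symbol, with the counts and DMM to sham ratios of muscle genes in these libraries already known, so those values are given as a description and not as evidence.

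The libraries came from 2 mice of the C57BL/6J strain, M05 and M04, 8 weeks after surgery, with 1 library per knee. In each mouse a knee had undergone DMM, surgical destabilization of the medial meniscus, an operation that makes the joint unstable and leads to osteoarthritis, and a knee had undergone sham surgery, which makes 2 DMM and 2 sham libraries. The tissue was superficial-zone cartilage of the medial femoral condyle, from which poly(A) RNA was sequenced. The sample labels give wild type for all 4 libraries, while the series' design text marks those of M05 as knockout without naming a gene, so M05 and M04 are treated here as 2 animals. With 1 DMM and 1 sham library per mouse, a ratio within a mouse has no replicate.

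Total counts were 12712425 to 19336628 per library, the largest being that of the sham library of M05. Haemoglobin genes held between 25.8% and 35.3% of the counts. The cartilage genes that define the labelled tissue were present, but at a lower level in the sham library of M05. Their 15 detected genes summed to 5465 CPM in the DMM and 1588 CPM in the sham library of M05, and to 8482 CPM in the DMM and 6746 CPM in the sham library of M04 (CPM, counts relative to the library's total count, scaled alike in all libraries). Col2a1, the main collagen of cartilage, had 2624 CPM in the DMM and 641 CPM in the sham library of M05, against 4310.0 and 3498 CPM in the DMM and sham libraries of M04. Neutrophil genes were also plentiful, at 39408 to 56123 CPM for 7 genes.

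As background, a muscle fibre contracts when myosin heavy chains, each carrying an essential and a regulatory light chain, pull on actin filaments. Calcium released from the sarcoplasmic reticulum binds troponin C and so frees the actin filament from inhibition by troponin I. Most of these proteins exist as a fast and a slow form encoded by separate genes. Slow fibres use the heavy chain of Myh7. Fast fibres use Myh2 (type IIa, the most oxidative of them), Myh1 (type IIx) or Myh4 (type IIb, glycolytic and abundant in the limb muscles of the mouse). Cartilage itself holds no muscle fibres, but the thigh and calf muscles lie close to the knee.

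Muscle transcripts were present in all 4 libraries, at a small share. The 40 genes together held 0.0423% of the counts in the DMM library of M05 (95% Wilson interval 0.0412 to 0.0435) and 0.104% in its sham library (0.102 to 0.105). In M04 they held 0.0982% in the DMM library (0.0965 to 0.0999) and 0.0408% in the sham library (0.0398 to 0.0420). The high libraries were thus the sham knee of M05 and the DMM knee of M04, and the low ones were their counterparts. These intervals cover counting error only. In RNA from whole tissue, fewer cells of a type and less RNA per cell cannot be told apart, so a share does not give an amount of muscle.

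Genes were ordered in nearly the same way. The sham library of M05 and the DMM library of M04 both lay above the other 2 libraries in CPM for 34 of the 40 genes, among them all 14 fast genes, all 6 energy genes, 9 of 11 common genes and 5 of 9 slow genes. Of the 35 genes that passed the filter on low counts 32 had this order, against 13.5% of all 13103 genes tested. The 6 others were Myh7, Myl2, Tnnc1, Casq2, Tpm2 and Trdn. With libraries scaled by TMM, 32 genes were highest in the sham library of M05 and 6 in the DMM library of M04. The reverse order was found for 0 of the 35 and for 9.21% of all genes tested. The genes were selected on these values, so the counts describe them and test nothing.

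**Figure D1:**
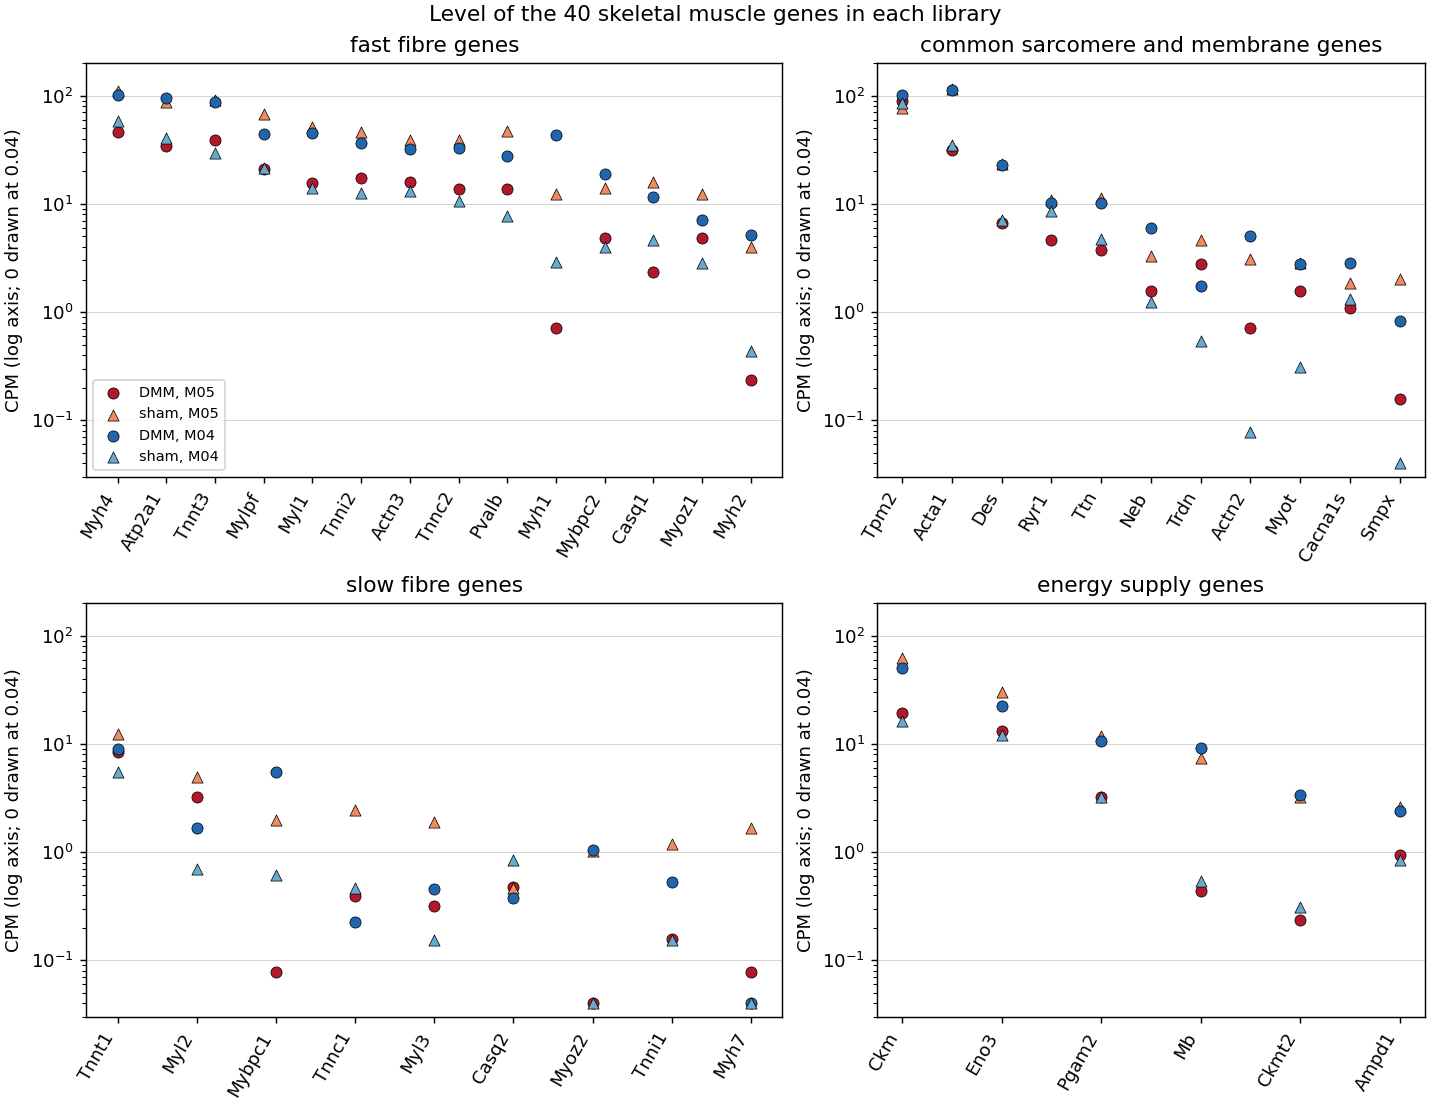
CPM (log axis, zero drawn at 0.04) of the 40 muscle genes in each library, by group of genes, with circles for DMM and triangles for sham knees and red for M05 and blue for M04. All 14 fast and all 6 energy genes show the sham library of M05 and the DMM library of M04 on top, whereas Tpm2 lies between 76.6 and 102 CPM in all 4.

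Among genes common to all fibres, 9 of 11 had this order. Acta1, the actin of skeletal muscle, had 31.3 CPM in the DMM and 115 CPM in the sham library of M05, and 113 CPM in the DMM and 34.6 CPM in the sham library of M04. The 2 high libraries differed little from each other, as did the 2 low ones. The log2 ratio of DMM to sham was -1.99 in M05 (95% counting interval -2.15 to -1.84) and 1.59 in M04 (1.44 to 1.75). Des, which encodes desmin, the intermediate filament that ties myofibrils together, had 6.69 CPM in the DMM and 23.4 CPM in the sham library of M05, and 23.1 CPM in the DMM and 7.13 CPM in the sham library of M04. Ratios here and below are on TMM-scaled CPM with a prior count of 2, which draws the ratios of genes with few counts towards 0.

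The giant proteins of the sarcomere were counted at lower levels with the same order. Ttn, encoding titin, the spring between the Z disc and the middle of the sarcomere, had 48 and 218 counts in the DMM and sham libraries of M05 and 135 and 61 counts in those of M04. Neb, encoding nebulin, which runs along the actin filament, had 20 and 64 counts in the DMM and sham libraries of M05 and 79 and 16 counts in those of M04. Actn2, the alpha-actinin found in the Z disc of all fibres, differed more: 9 counts in the DMM and 60 in the sham library of M05, and 67 counts in the DMM and 1 in the sham library of M04, a log2 ratio of 4.44 whose counting interval ran from 3.39 to 11.2. Myot, a Z-disc protein, had 20 and 55 counts in M05 and 37 and 4 in M04. Smpx, a small protein of the same region, had 2 and 39 counts in M05 and 11 and 0 counts in M04. With TMM scaling, its 11 counts in the DMM library of M04 were 3.31-fold above the 3 counts that a count of 0 in the sham library allows. That fold takes the 11 counts as exact, and the counting interval of its log2 ratio in M04 began at 1.18.

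Tpm2, the beta tropomyosin that is also made outside skeletal muscle, did not share the order. It had 89.6 CPM in the DMM and 76.6 CPM in the sham library of M05, and 102 CPM in the DMM and 85.2 CPM in the sham library of M04. Its ratios were 0.11 in M05 and 0.16 in M04, so its libraries stood close together although its mean of 88.4 CPM, a level not corrected for length, was the highest of the 40 genes. With total counts in place of TMM, Tpm2 still had no ratio below 0 in M05.

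The genes of excitation and calcium release had few counts. Cacna1s, the voltage sensor in the T tubule, had 14 and 36 counts in the DMM and sham libraries of M05 and 38 and 17 in those of M04. Ryr1, the calcium release channel it opens, had 59 and 208 counts in M05 and 136 and 110 counts in M04. The Ryr1 ratio was -1.31 in M05 but 0.16 in M04, where the counting interval of -0.22 to 0.53 includes 0. Trdn, which encodes triadin, a partner of Ryr1, had 35 and 89 counts in M05 and 23 and 7 counts in M04, so both libraries of M05 lay above both of M04.

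Fast-fibre genes formed the largest part of the signal and all 14 had a ratio below 0 in M05 and above 0 in M04. Myh4 had the most counts of them, with 45.8 CPM in the DMM and 109.6 CPM in the sham library of M05, and 101 CPM in the DMM and 58.0 CPM in the sham library of M04. Tnnt3, the fast troponin T that anchors the troponin complex to tropomyosin, had 38.8 and 91.9 CPM in the DMM and sham libraries of M05 and 87.5 and 29.6 CPM in those of M04. Atp2a1, the calcium pump of the fast sarcoplasmic reticulum, had 34.2 and 86.5 CPM in M05 and 94.9 and 40.8 CPM in M04. Each of these genes had 2 high and 2 low libraries without overlap. The difference was smallest for Myh4 in M04, where its ratio was 0.69 (0.56 to 0.82), against -1.38 (-1.51 to -1.25) in M05.

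The fast light chains and troponins had ratios of like size. Myl1, the fast essential light chain, had 15.7 and 50.8 CPM in the DMM and sham libraries of M05 and 44.8 and 14.1 CPM in those of M04. Mylpf, the fast regulatory light chain, had 21.0 and 67.2 CPM in M05 and 44.2 and 21.4 CPM in M04. Tnnc2, the fast troponin C, had 13.7 and 39.0 CPM in M05 and 33.0 and 10.6 CPM in M04. For all 3 the sham library of M05 was the highest and the DMM library of M04 came next. Tnni2, the fast inhibitory troponin, had 17.2 and 46.3 CPM in M05 and 36.4 and 12.6 CPM in M04. Actn3, the alpha-actinin restricted to fast fibres, had 15.8 and 39.2 CPM in M05 and 32.3 and 13.2 CPM in M04. Mybpc2, the fast myosin binding protein C, had 4.80 and 13.9 CPM in M05 and 18.8 and 3.95 CPM in M04, the DMM library of M04 being highest here.

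Pvalb and Casq1, which handle calcium in fast fibres, followed. Pvalb, the soluble calcium buffer that speeds relaxation, had 13.6 CPM in the DMM and 46.9 CPM in the sham library of M05, and 27.5 CPM in the DMM and 7.75 CPM in the sham library of M04. Casq1, the calcium store protein of the reticulum, had 2.36 and 15.8 CPM in M05 and 11.7 and 4.65 CPM in M04. Its ratio of -2.79 (-3.45 to -2.32) in M05 was far from its ratio of 1.20 (0.78 to 1.68) in M04 in size as well as in sign. Myoz1, a Z-disc protein of fast fibres, had 62 and 241 counts in M05 and 94 and 37 counts in M04.

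The sequences before the start sites of the adult heavy chain genes are shown because the libraries differed in which of these genes they held. They are RefSeq promoter windows of 300 bases on build GRCm38.p6, from 250 bases before to 50 after the start, whereas the counts were made on GRCm39, so positions are not those of the count table. Myh4 lies at chr11:67237562-67237861, Myh1 at chr11:67199852-67200151 and Myh2 at chr11:67170777-67171076, all on the plus strand, and Myh7 at chr14:54994577-54994876 on the minus strand. For Myh7, which has 2 listed starts, the first is shown. Capitals mark runs of at least 12 bases that are found in the windows of all 3 fast genes.
Myh4: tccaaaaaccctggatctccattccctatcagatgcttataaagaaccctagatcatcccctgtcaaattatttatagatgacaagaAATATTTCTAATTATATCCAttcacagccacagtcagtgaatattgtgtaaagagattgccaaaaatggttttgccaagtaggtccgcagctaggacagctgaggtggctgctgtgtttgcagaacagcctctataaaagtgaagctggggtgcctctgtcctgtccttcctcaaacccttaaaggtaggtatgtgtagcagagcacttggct
Myh1: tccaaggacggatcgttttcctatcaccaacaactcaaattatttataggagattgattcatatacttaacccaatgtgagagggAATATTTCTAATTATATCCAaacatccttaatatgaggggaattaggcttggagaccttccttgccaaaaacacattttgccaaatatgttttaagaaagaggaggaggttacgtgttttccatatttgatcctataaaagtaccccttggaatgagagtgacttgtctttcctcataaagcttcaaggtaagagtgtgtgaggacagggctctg
Myh2: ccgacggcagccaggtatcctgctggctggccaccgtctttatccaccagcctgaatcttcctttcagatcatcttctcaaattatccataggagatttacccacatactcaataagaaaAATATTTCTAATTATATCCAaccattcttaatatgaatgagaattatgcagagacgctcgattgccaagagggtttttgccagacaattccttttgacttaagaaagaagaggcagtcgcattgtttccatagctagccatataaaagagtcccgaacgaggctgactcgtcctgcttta
Myh7: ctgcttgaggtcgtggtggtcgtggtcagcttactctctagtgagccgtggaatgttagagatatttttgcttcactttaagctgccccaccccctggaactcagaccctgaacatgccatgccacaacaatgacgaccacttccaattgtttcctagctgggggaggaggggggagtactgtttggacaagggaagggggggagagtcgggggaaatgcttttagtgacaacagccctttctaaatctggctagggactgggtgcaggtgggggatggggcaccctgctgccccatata
The fast windows shared a single run of 20 bases, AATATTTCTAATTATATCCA, starting at base 88 of the window in Myh4, 86 in Myh1 and 121 in Myh2. On either strand, 3 of 27025 promoters in the table held it, those of these 3 genes, and the Myh7 window had no shared run. The TATA box letters TATAAA were in the windows of Myh4, Myh1 and Myh2, in 6 of the 32 windows found for the 40 genes and in 14.2% of all promoters. The letters CAGCTG, an E-box that myogenic factors can bind and a special case of the E-box CANNTG, were in 17 of the 32 (53.1%) and in 16.1% of all promoters. CANNTG itself was in 27 of the 32 (84.4%) and in 72.1% of all promoters. For the MEF2 core, CTA and TAG with 4 bases of any kind between them were searched and found in 4 of the 32 (12.5%) and in 3.70% of all. Other forms of this core were not searched, so a window without this match may still hold a MEF2 site. Both strands were searched, and a match is a run of letters, not a site shown to be bound.

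The make-up of the heavy chain transcripts differed between libraries, beyond their sum. Per length, Myh4 had 8.26 FPKM in the DMM and 21.2 FPKM in the sham library of M05, and 15.2 FPKM in the DMM and 9.49 FPKM in the sham library of M04 (FPKM, fragments per kilobase scaled to library size, as deposited). Myh1 had 0.128 FPKM in the DMM and 2.22 FPKM in the sham library of M05, and 6.36 FPKM in the DMM and 0.398 FPKM in the sham library of M04. Myh2 had 0.0423 and 0.629 FPKM in the DMM and sham libraries of M05 and 0.614 and 0.0508 FPKM in those of M04. Myh4 was the most abundant of the 4 adult chains in every library. Myh1 and Myh2 together made up 2.02% of the summed FPKM of the 4 genes in the DMM and 11.7% in the sham library of M05, and 31.4% in the DMM and 4.52% in the sham library of M04. By counts these shares were 2.02% (95% Wilson interval 1.16 to 3.49) and 12.8% (11.5 to 14.1) in M05 and 32.4% (30.4 to 34.5) and 5.42% (4.06 to 7.24) in M04. All 4 intervals were apart from each other, so the DMM library of M04 held the largest share of type IIa and IIx chains and the DMM library of M05 the smallest. This share was chosen after its values were seen.

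**Figure D2:**
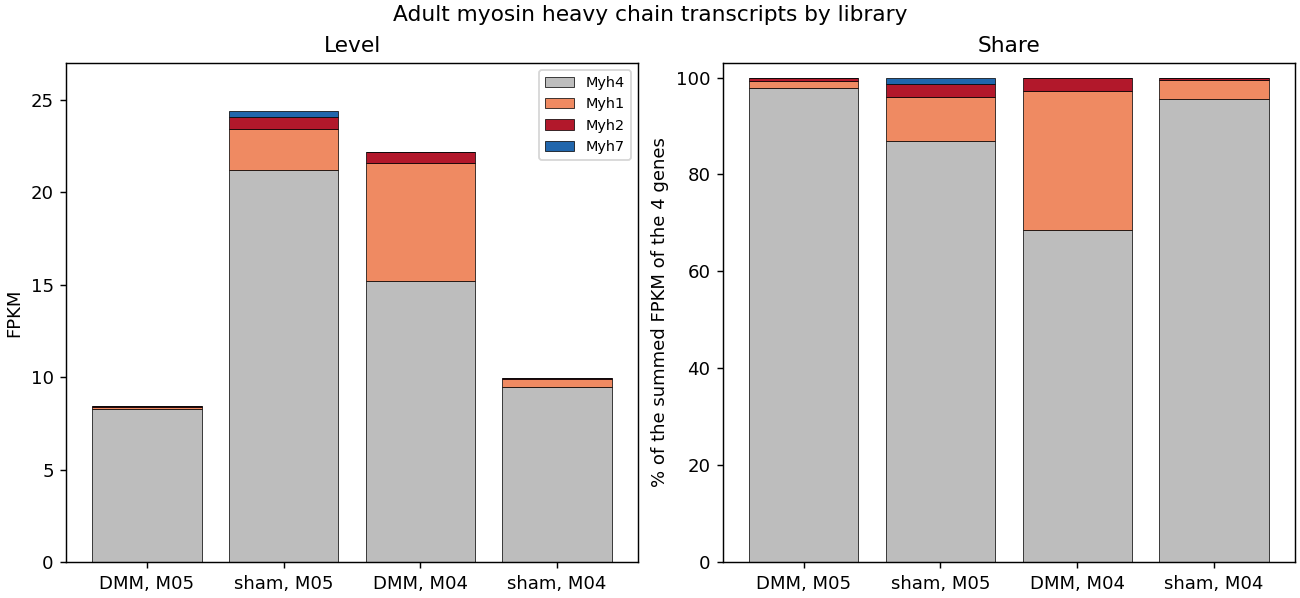
Transcript level in FPKM (left) and percent of the summed FPKM (right) of the adult myosin heavy chain genes Myh4, Myh1, Myh2 and Myh7 in each library, without error bars since each bar is 1 library. Myh4 makes up 97.8% in the DMM and 87.0% in the sham library of M05 and 68.6% in the DMM and 95.5% in the sham library of M04.

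Reads shared between these genes limit the split. In GENCODE M21 transcripts, 9.46% of the windows of 100 bases in Myh1 also occur in another heavy chain, mostly Myh2, as do 9.17% of those in Myh2 and 3.85% of those in Myh4. The 100 bases are the read length given in the labels. For Myh7 it is 11.2%, all shared with the cardiac Myh6. How the authors divided such reads is not given in the sources used here, so the low values of Myh2 in particular are uncertain. Myh1 and Myh2 had 9 and 3 counts in the DMM library of M05, against 237 and 77.8 counts in its sham library.

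Slow-fibre genes had lower sums than fast ones in all 4 libraries, and 5 of the 9 had the order of the fast genes. Myh7, the slow heavy chain, had 1 count in the DMM and 32.5 counts in the sham library of M05, and 0 counts in both libraries of M04. A count of 0 allows up to 3 counts, or 0.226 CPM in the DMM and 0.232 CPM in the sham library of M04. Myh7 made up 0.168% of the summed heavy chain FPKM in the DMM and 1.36% in the sham library of M05. The M05 ratio of Myh7 rests on that 1 count, at -3.19 with a counting interval of -9.86 to -1.93. Tnnc1, the slow and cardiac troponin C, had 5 and 47 counts in the DMM and sham libraries of M05 and 3 and 6 counts in those of M04. Myl3, the slow essential light chain, had 4 and 37 counts in M05 and 6 and 2 counts in M04. Tnni1, the slow inhibitory troponin, had 2 and 23 counts in M05 and 7 and 2 counts in M04. For these 4 genes the sham library of M05 was the highest, and the DMM library of M04 held at most 7 counts.

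The other 5 genes assigned to slow fibres varied in their order. Mybpc1, the slow-type myosin binding protein C that some fast fibres also make, had 1 and 38 counts in the DMM and sham libraries of M05 and 73 and 8 counts in those of M04, which makes the DMM library of M04 the highest. Myoz2, a Z-disc protein of slow fibres and heart, had 0 and 20 counts in M05 and 14 and 0 counts in M04. Set against the 3 counts that a count of 0 allows, it was 4.76-fold lower in the DMM library of M05 and 4.21-fold higher in the DMM library of M04. These folds take the 20 and 14 counts as exact. The counting intervals of its ratios ended nearer to 0, at -1.82 in M05 and 1.58 in M04. Tnnt1, the slow troponin T, had 8.496 and 12.4 CPM in M05 and 8.90 and 5.50 CPM in M04, and Myl2, the slow and cardiac regulatory light chain, 3.23 and 4.96 CPM in M05 and 1.66 and 0.697 CPM in M04. In M05 both had ratios nearer to 0, at -0.66 for Tnnt1 and -0.72 for Myl2, than any fast gene. Casq2, the slow and cardiac calsequestrin, had 6 and 9 counts in M05 and 5 and 11 counts in M04, too few to show a difference.

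Fast transcripts outweighed slow ones in every library. Per length, the 14 fast genes held 92.9% of the summed fast and slow FPKM in the DMM and 95.1% in the sham library of M05, and 96.8% in the DMM and 95.5% in the sham library of M04. Without Myl2 and Tnnt1, which carried most of the slow sum, these shares were 99.2%, 98.3%, 99.2% and 99.2% in the same order. The lowest of the 4 was then the sham library of M05 instead of the DMM library of M05. That pair of genes was left out after their values were seen. Across 9 pairs of a fast and a slow form, the slow share was higher in the sham than in the DMM library of M05 in 6 pairs, and higher in the DMM than in the sham library of M04 in 4 pairs. For troponin C the slow share was 2.73% in the DMM and 5.41% in the sham library of M05, and 0.452% in the DMM and 2.88% in the sham library of M04. For the essential light chain it was 1.84% and 3.37% in M05 and 0.964% and 1.01% in M04. For troponin T it was 14.7% and 10.2% in M05 and 8.14% and 13.5% in M04, and so lower in both high libraries.

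The 6 genes of energy supply fell into a steep pair, Mb and Ckmt2, and 4 with ratios like those of fast genes. Mb, which encodes myoglobin, the oxygen store of oxidative fibres, had 5.5 counts in the DMM and 143 in the sham library of M05, and 121 counts in the DMM and 7 in the sham library of M04. These are 0.433 and 7.40 CPM in M05 and 9.12 and 0.542 CPM in M04. Its ratios were -3.76 (-5.56 to -2.93) in M05 and 3.65 (2.88 to 5.31) in M04. Ckmt2, the creatine kinase of mitochondria in striated muscle, had 3 and 62 counts in M05 and 45 and 4 counts in M04. Ckm, the creatine kinase of the cytosol, was far more abundant and differed less, with 19.2 and 62.5 CPM in M05 and 50.1 and 16.4 CPM in M04. Its ratios were -1.82 (-2.03 to -1.62) and 1.49 (1.27 to 1.73).

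Glycolytic and nucleotide enzymes resembled Ckm. Pgam2, the muscle phosphoglycerate mutase, had 41 and 228 counts in the DMM and sham libraries of M05 and 140 and 42 counts in those of M04. Eno3, the muscle enolase, had 13.1 and 30.3 CPM in M05 and 22.6 and 12.1 CPM in M04. Ampd1, the AMP deaminase of muscle, had 12 and 51 counts in M05 and 32 and 11 counts in M04. Each again had its 2 high libraries in the sham knee of M05 and the DMM knee of M04.

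A few genes had large ratios in both mice. Of the 40 genes, 4 were at least 10-fold apart between the knees in both mice, on TMM-scaled counts without a prior count. These were Myh1, Myh2, Mb and Ckmt2, named after their values were seen. Genes with 0 counts in a library, such as Myoz2 and Smpx, have no such fold and could not qualify. Myh2 and Ckmt2 had 3 counts each in the DMM library of M05, and 5.67 and 4 in the sham library of M04. The counting intervals of their log2 ratios in M04 began at 2.16 and 1.89. Mb was 18.6-fold apart in M05 and 15.6-fold in M04, and Myh1 18.8-fold and 13.9-fold. The 12 fast genes other than Myh1 and Myh2 were 2.58-fold to 7.26-fold apart in M05 and 1.61-fold to 4.42-fold in M04. Relative to Ckm, Mb had 2.25 counts per 100 Ckm counts in the DMM and 11.8 in the sham library of M05, and 18.2 in the DMM and 3.31 in the sham library of M04. Ckmt2 had 1.23 and 5.13 per 100 Ckm counts in M05 and 6.78 and 1.89 in M04. Between the libraries with the highest and the lowest such value, Mb differed 8.10-fold, Ckmt2 5.52-fold, Myh2 8.31-fold and Myh1 23.4-fold. The 12 other fast genes differed 1.10-fold to 2.31-fold. Myl1 was the steadiest of the 12 other fast genes, at 81.4 and 81.3 per 100 Ckm counts in the DMM and sham libraries of M05. In those of M04 it had 89.5 and 86.1. Casq1 was the least steady of the 12, at 12.3 and 25.2 in M05 and 23.3 and 28.4 in M04. A list of 12 genes of oxidative metabolism in red muscle had smaller median ratios, at -1.03 in M05 and 0.72 in M04. Mb and Ckmt2 are among them, and most of the 12 are also made by other cells. Of its 10 tested genes, 5 had a ratio of -1 or less in M05 and 4 had one of 1 or more in M04. Over all genes tested these shares were 4.15% and 3.68%. Mb and Ckmt2 were chosen with their ratios known, so nothing is read from these shares. Cox6a2, Cox7a1 and Cox8b of this list are also on the further list of striated muscle genes given below. Across the 40 genes the ratios of M05 and M04 were related with Pearson's r at -0.59 and Spearman's rho at -0.54, a description over genes that come from the same 4 libraries.

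**Figure D3:**
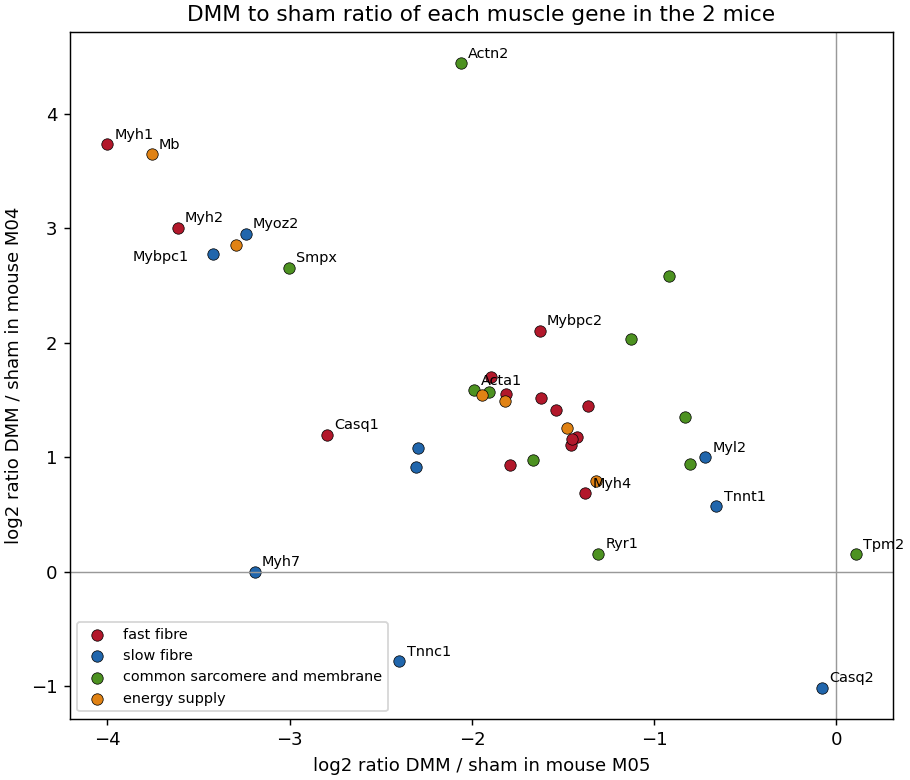
Log2 ratio of DMM to sham of each of the 40 muscle genes in mouse M05 (horizontal) and mouse M04 (vertical), coloured by group, each point resting on 1 library per knee. Most points lie in the upper left, below 0 in M05 and above 0 in M04, with Myh1 (-3.999 and 3.74) and Mb (-3.76 and 3.65) far out and Tpm2 (0.11 and 0.16) near the origin.

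In sum over the list, the median ratio of the 40 genes was -1.73 in M05 and 1.38 in M04, against medians of -0.01 and 0.01 over all 13103 genes tested. The medians of the 40 were the same with genes at 0 set to their bound. By group, the median was -1.63 in M05 and 1.43 in M04 for fast, -2.31 and 0.91 for slow, -1.31 and 1.57 for common and -1.88 and 1.52 for energy genes. With genes at 0 set to their bound the slow median in M05 was -2.30. Ratios were below 0 in M05 and above 0 in M04 for 36 of 40 genes under each of the scalings and pseudocounts tried, the others being Myh7, Tnnc1, Casq2 and Tpm2. Of the 35 genes past the filter, 29 had a ratio of -1 or less in M05, where 4.15% of all genes tested had one, and 26 had a ratio of 1 or more in M04, where 3.68% did. Both held for 24, against 0.763% of all genes. A ratio of 1 or more in M05 was found for 0 of the 35 and 3.63% of all genes, one of -1 or less in M04 for 0 and 1.68%, and both together for 0 and 0.176%. The genes were chosen with these ratios known, so nothing is read from these shares.

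Averaged over both mice, no muscle gene passed the test of DMM against sham knees. In edgeR's quasi-likelihood test with the mouse as a block, 0 of 35 genes tested passed an adjusted p of 0.05 and 0 had an unadjusted p under 0.05, while 0.649% of all genes tested passed, 0.633% as higher and 0.0153% as lower in DMM knees. DESeq2 called 0 of the 40 with 0 at an unadjusted p under 0.05, and limma on log2 FPKM called 0 with 1. The opposite ratios of the mice enter this test as spread. Without the sham library of M04, in a fit that has no mouse term, 11 of the 39 muscle genes then tested were lower in the DMM knees past the threshold, where 0.19% of the 13662 genes tested were. The sham arm is then 1 library, assumed to vary like the 2 DMM libraries, from which alone the spread comes. It is the sham library of M05, in which 32 of the 40 genes were highest with TMM scaling. The genes were chosen with these values known, so the direction was known beforehand and the 11 calls test nothing. The 11 were Actn3, Casq1, Ckm, Eno3, Myh4, Myl1, Mylpf, Pvalb, Tnnc2, Tnni2 and Tnnt3. Leaving out each other library gave 0. The fit leaves 1 residual degree of freedom, and nothing in the labels gives more than 2 animals behind these p-values.

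Between the animals, 2 muscle genes were higher in M05 than in M04 past an adjusted p of 0.05, where 0.962% of all genes tested were, and 0 were lower, where 1.64% were. In either direction 2.6% of all genes passed. Myl2 had 41 and 96 counts in the DMM and sham libraries of M05 and 22 and 9 counts in those of M04, a log2 difference of 2.06 (SE 0.55, edgeR adjusted p = 0.0127). Trdn differed by 1.99 (SE 0.58, edgeR adjusted p = 0.0280). DESeq2 called 0 of the 40, and with another scaling, by DESeq2 size factors or by total counts, edgeR called Myl2 alone. The comparison is of 2 animals and says nothing on genotype.

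Other genes of striated muscle followed the same order more loosely. Of a further list of 67 genes, 43 were tested. Of these, 19 had a ratio of -1 or less in M05, 20 had one of 1 or more in M04 and 14 had both. Over all genes tested these shares were 4.15%, 3.68% and 0.763%. The list's median over all 67 was -0.97 in M05 and 0.90 in M04. Genes at its highest CPM, which other cells make as well, had ratios nearer to 0 than the list's median. Tpm3, a tropomyosin of slow muscle and non-muscle cells, had ratios of 0.21 in M05 and -0.05 in M04. Atp2a2, the calcium pump of slow muscle, heart and non-muscle cells, had -0.14 and -0.27. Tpm1, at -0.37 and 0.53, and Pfkm, at -0.05 and 0.15, had the signs of the muscle genes. Xirp2, an actin-binding protein of muscle, had 6 and 86 counts in the DMM and sham libraries of M05 and 140 and 13 counts in those of M04. Cox7a1 and Cox8b, muscle forms of subunits of cytochrome oxidase, had 10 and 83 counts and 2 and 47 counts in M05. In M04 they had 25 and 6 counts and 20 and 0 counts. Cox6a2, a further muscle form, had 57 and 200.5 counts in M05 and 120.5 and 109.5 counts in M04. Its ratios were -1.30 in M05 and -0.02 in M04. Xirp2, Cox7a1, Cox8b and Cox6a2 were named after their values were seen.

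Among all genes tested, opposite ratios of this size were rare. A ratio of -1 or less in M05 with one of 1 or more in M04 was found for 100 of the 13103 genes. Of these, 24 belonged to the 40, 14 to the further list and the rest to neither. The opposite pattern, up in M05 and down in M04, was found for 23 genes, 0 of them on either list. Of the 9481 genes tested with a mean of at least 5 CPM, 22 of them among the 40, 16 had the first pattern and 0 the opposite. The 40 were chosen with these ratios known, so the counts describe them and test nothing. Of the 16 genes, 15 were among the 40 muscle genes. The other was A930016O22Rik, with 84.5 and 397.5 counts in M05 and 156 and 63.5 counts in M04. It is annotated by RefSeq (GRCm38.p6) as a long non-coding RNA that overlaps Ckm. Since it is not stated whether the libraries kept strand, its reads and those of Ckm cannot be told apart.

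Markers of heart and of growing muscle ranged from 0 counts to the level of some muscle genes. The 12 genes of satellite cells and myogenic regulation summed to 34.8 CPM in the DMM and 35.0 CPM in the sham library of M05, and to 47.1 CPM in the DMM and 35.8 CPM in the sham library of M04, with Mef2c, which other cells make too, as the highest. Of these, Pax7, Pax3, Myf5, Myf6 and Myog had 0 counts in all 4 libraries and Myod1 had 1 count in a single library, that of the DMM knee of M05. Cdh15, a cadherin of satellite cells, had 86 and 182 counts in the DMM and sham libraries of M05 and 104 and 97 counts in those of M04. The 5 genes of developing muscle summed to 23.4 to 32.5 CPM, nearly all of it from Myl4, the embryonic and atrial light chain, at 23.3 to 30.2 CPM with ratios of 0.09 in M05 and 0.27 in M04. Actc1, the actin of heart and developing muscle, had 18 and 50 counts in M05 and 23 and 1 counts in M04, which is the order of the muscle genes. Myh3, the embryonic heavy chain, had at most 1 count, Myh8, the perinatal chain, at most 7.33, and Chrng, the fetal receptor subunit, had 0 in all libraries. The 8 heart genes, such as Myh6 and Tnni3, summed to 0.226 to 0.852 CPM, with Myl7 and Nppb at 0 in all libraries. The 7 genes of the nerve and muscle junction summed to 2.46 CPM in the DMM and 2.48 CPM in the sham library of M05, and to 4.37 CPM in the DMM and 2.52 CPM in the sham library of M04. The 9 smooth muscle genes, with Acta2 and Tagln among them, summed to 94.99 CPM in the DMM and 93.1 CPM in the sham library of M05 and to 141 CPM in the DMM and 123 CPM in the sham library of M04, with none at 0 in all libraries.

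Other tissues around the joint did not have the order of the muscle genes. Cartilage genes were lowest in the sham library of M05 and highest in the DMM library of M04, so that the 2 libraries high in muscle genes were the lowest and the highest in cartilage. The 6 erythroid genes found summed to 152002 CPM in the DMM and 181132 CPM in the sham library of M05. In M04 they summed to 133677 CPM in the DMM and 157494 CPM in the sham library. They include only part of the haemoglobin genes, so these sums lie below the haemoglobin share given above. The 9 adipocyte genes summed to 178 and 195 CPM in the DMM and sham libraries of M05 and to 347 and 221 CPM in those of M04, and so were also highest in the DMM library of M04. Endothelial genes summed to 146 and 125 CPM in M05 and to 209 and 189.6 CPM in M04, tendon genes to 25.6 and 16.5 CPM and to 40.04 and 31.0 CPM, and Schwann cell genes to 76.6 and 61.1 CPM and to 94.9 and 84.1 CPM. Bone genes summed to 5830 and 4667 CPM in M05 and to 8135 and 6797 CPM in M04. The part of these tissues, and of library depth, in the muscle values was not tested.

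**Figure D4:**
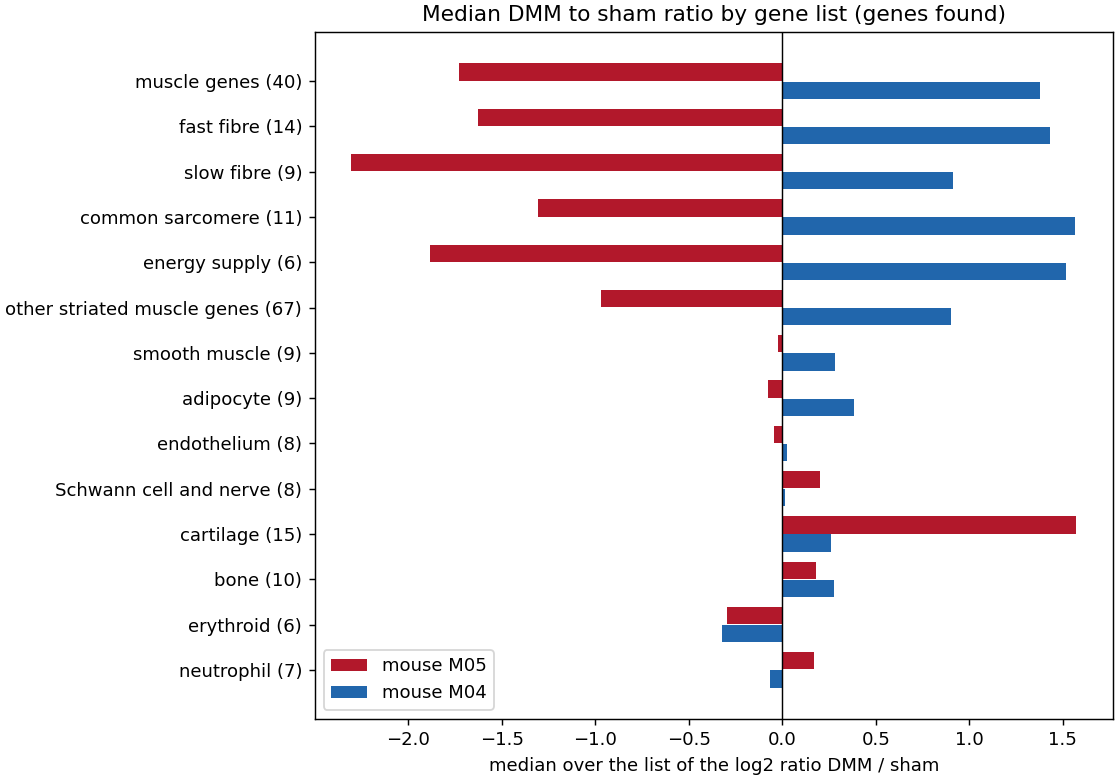
Median log2 ratio of DMM to sham over the genes of each list, in M05 (red) and M04 (blue), with the number of genes found in brackets. The skeletal and striated muscle lists lie below 0 in M05 and above 0 in M04, as do smooth muscle, adipocyte and endothelial genes with medians nearer to 0, while cartilage genes lie above 0 in both (1.57 and 0.26) and erythroid genes below 0 in both (-0.30 and -0.32).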

How the data were processed

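Poly(A) RNA of 4 libraries, a DMM and a sham knee from each of 2 mice, was sequenced as single-end reads of 100 bases, per the labels' protocols. The deposited table holds estimated counts per gene, of which 9.21% to 10.9% were not whole, and the authors deposited FPKM values beside them. The submitters' processing notes name build GRCm39 (mm39). No aligner, counter or strand setting is given in the sources used here. Free text describes the sham samples as DMM knees, but groups were taken from title and treatment. Each library is listed in 2 columns with equal values in all 24421 rows and was counted once.

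Estimated counts were rounded and tested with edgeR 4.0.16 (R 4.3.3) with filterByExpr, TMM and a robust quasi-likelihood fit with mouse and surgery as terms. Benjamini-Hochberg adjustment ran over the 13103 genes kept. Mouse was blocked since, per the labels, both knees are of 1 animal, and deviations of same-mouse libraries correlated at 0.13 across genes. Infinite prior degrees of freedom were given to 10879 genes, so their p-values rest on the trend across genes. The fit was also run on simulated counts with known changes, the same dispersion for every gene and no difference between mice. That run does not cover opposite ratios in the mice. Alternatives used DESeq2 1.42.0, limma 3.58.1, other scalings and filters. Ratios within a mouse have no test. Counting intervals at 95% are exact binomial for ratios and Wilson for shares, and a library with no count is given a limit of 3.

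The members and lists were chosen with earlier results of these data known. All 40 are accounted for, with every library's value for those with a mean of at least 10 CPM and for the heavy chains. Genes from other lists are those at the highest CPM of a list, or were named after their values were seen. Symbols are as deposited, 5 of the 40 did not pass the filter (Myh7, Myl3, Tnnc1, Tnni1 and Casq2), and 32 of 40 matched a RefSeq promoter.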

Additional observations from a re-analysis of the deposited data

Results flagged for a closer look

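The DMM to sham ratio had opposite signs in the 2 mice for the muscle genes as a list and for each group of them. Each mouse is a single pair of libraries, and the difference between the mice was not tested. As M05 minus M04, the difference of the median log2 ratios was -3.11 for the 40 genes, -3.06 for fast, -3.22 for slow, -2.87 for common and -3.40 for energy genes. For the further list of striated muscle genes it was -1.87.

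Of the 16 genes averaging 10 CPM or more, 12 had a ratio of at least 1 in size in each mouse. The same difference was largest among them for Myh1, at -7.74. It was -3.73 for Mybpc2, -3.59 for Pvalb, -3.58 for Acta1, -3.47 for Des, -3.36 for Myl1 and -3.31 for Ckm. It was -3.14 for Tnnc2, -2.95 for Tnni2, -2.81 for Tnnt3, -2.60 for Actn3 and -2.56 for Atp2a1. All 12 were lower in the DMM than in the sham knee of M05 and higher in the DMM than in the sham knee of M04.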

How the results depend on the processing

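For DMM against sham the count of 85 genes became 35 with DESeq2 size factors, 53 with total counts, 12 with DESeq2, 0 without the replicate block (322 at an unadjusted p under 0.05) and 1 with limma on log2(FPKM + 1) or log2(FPKM + 0.1). Leaving out a library gave 0 to 121 genes, and 0 to 11 muscle genes. The fit with the highest of these counts had the sham library of M05 as its only sham library, so its muscle count tests nothing. The block changed no call of a muscle gene. For M05 against M04 the count of 341 became 186 with DESeq2 size factors, 912 with total counts (21 higher and 891 lower in M05, against 126 and 215) and 92 with DESeq2 (69 higher and 23 lower), and the 2 muscle genes became 1, 1 and 0 in turn, and 0 with a filter at 5 CPM, which left out both.

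The share of counts held by the 40 genes, in the DMM and sham libraries of M05 and then of M04, was 0.0599%, 0.160%, 0.132% and 0.0586% without haemoglobin genes, 0.0350%, 0.0840%, 0.0827% and 0.0323% of summed FPKM, and 0.0333%, 0.0960%, 0.0879% and 0.0323% without Tpm2. The median ratio was -1.28 in M05 and 0.91 in M04 on log2(FPKM + 1). The fast share, in the same order, was 94.5%, 95.8%, 96.9% and 96.3% by counts, 91.7%, 94.2%, 96.2% and 94.8% for paralog pairs, and 99.2%, 98.3%, 99.2% and 99.2% without Myl2 and Tnnt1. Of 80 single ratios, 29 moved beyond their counting interval on log2(FPKM + 1), 7 on log2(FPKM + 0.1) and 1 with total counts, which put the median of all genes at 0.10 in M05 and 0.11 in M04. The cause was not tested. Depth limits genes with few counts, such as Myh7, Tnnc1, Tnni1 and Casq2, whose counting intervals are wide.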
